A study of Homo sapiens with 6 samples.

Results

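The 10 genes described here are factors, regulators and target genes of the YAP/TEAD pathway: YAP1, WWTR1, TEAD1, LATS2, AMOTL2, AJUBA, CCN1, CCN2, ANKRD1 and AXL. They were chosen by gene symbol from the 13696 distinct genes of the deposited expression table, with earlier results of these data known. All 10 had a row, and all 10 had a mean above 1 CPM (read counts scaled to a common library size), so each was among the 13616 genes tested. The cells were hTERT RPE-1, human cells of the retinal pigment epithelium that telomerase keeps dividing. The untreated group held 3 libraries with no drug. The pre-dose group held 3 libraries of cells given 25 nM camptothecin, a compound that traps topoisomerase 1 on DNA, for 1 h and collected 24 h after its removal. Both groups share the same immortalised line, and the labels give no other genetic change. Whether each replicate was its own culture is not stated. The p-values therefore cover the spread among these 6 libraries alone, and that spread may be technical.

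YAP1 and its relative WWTR1, also called TAZ, are transcriptional co-activators that lack a DNA-binding domain and reach their target genes through TEAD proteins. The Hippo kinases LATS1 and LATS2 phosphorylate YAP1 and WWTR1 and so keep them out of the nucleus, which means that the pathway is set mostly by protein location and less by the mRNA level of the factors. Pathway activity is therefore commonly read from target genes such as CCN1, CCN2 and ANKRD1, which respond to cell density, spreading and tension in adherent epithelial cells.

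TEAD proteins recognise a short element, GGAATG, which reads CATTCC on the other strand. The element was searched on both strands in the 250 bases before each annotated start in a table drawn from RefSeq on GRCh38.p14, where 8 of the 10 genes had an entry, with 12 entries in all. The table of promoter windows used here held none for TEAD1 and CCN1. At least 1 copy was found in 6 of the 8 genes, and in 6 of the 12 windows. In AJUBA, AMOTL2 and AXL the copy lay only in the window of an inner start, inside the gene. Of all 35116 RefSeq windows of this length, 11.9% held at least 1 copy, 0.940% at least 2 and 0.0826% at least 3. The window of CCN2 held 3 copies and is shown because it stands among the 29 windows with that many. The 249 bases shown, on the minus strand at chr6:131951374-131951622, leave out 1 base of the window, the one next to the start, which is exonic in GENCODE 29. They are printed 5′ to 3′ with the element in capitals.
CCN2: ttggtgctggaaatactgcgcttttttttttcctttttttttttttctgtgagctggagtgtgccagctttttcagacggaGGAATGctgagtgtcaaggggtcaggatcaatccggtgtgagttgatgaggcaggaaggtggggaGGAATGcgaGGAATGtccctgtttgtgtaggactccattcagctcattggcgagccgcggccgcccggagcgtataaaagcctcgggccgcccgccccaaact

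For the other genes, 30 bases around each copy are shown so that the flanks can be compared, again 5′ to 3′ on the strand of the gene with the element in capitals. ANKRD1 held 2 copies, which begin 220 and 128 bases before the RefSeq start (minus strand, chr10:90921290-90921319 and chr10:90921198-90921227). YAP1 held 1 copy 162 bases before its start (plus strand, chr11:102110273-102110302). AJUBA, AMOTL2 and AXL each had 2 annotated starts, and 1 of the 2 windows held a copy (AJUBA, minus strand, chr14:22976884-22976913; AMOTL2, minus strand, chr3:134374499-134374528; AXL, plus strand, chr19:41226531-41226560). In AJUBA, AMOTL2 and AXL the copy lay before the inner of the 2 starts, within the gene span given below. The window of the outer start held none. In AMOTL2 and AXL the copy lay on the opposite strand of the gene. A match is a description of these letters only.
ANKRD1, far copy: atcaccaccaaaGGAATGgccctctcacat
ANKRD1, near copy: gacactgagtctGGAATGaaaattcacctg
YAP1: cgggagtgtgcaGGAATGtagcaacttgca
AJUBA: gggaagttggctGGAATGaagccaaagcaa
AMOTL2: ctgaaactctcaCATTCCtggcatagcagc
AXL: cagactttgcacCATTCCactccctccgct

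The libraries were close in depth, with effective totals of 26336941 to 31780391 reads, at which 3 counts correspond to 0.0944 to 0.114 CPM (counting error only). These totals were worked out from the lowest value of each library, with 0.5 assumed as the count added. Replicate 1 of both groups stood apart from replicates 2 and 3 across genes, so differences are given for each pair of same-numbered libraries as well. The labels do not state that such libraries belong together. Of 11 pigment epithelium markers, 5 had values: KRT8, KRT18, MITF, OTX2 and BEST1, with summed levels of 1371 to 1507 CPM in untreated and 1363 to 1407 CPM in pre-dose libraries. Nearly all of that sum came from KRT8 (869 to 979 CPM) and KRT18 (413 to 461 CPM), keratins of many simple epithelia. The transcription factors MITF (44.9 to 50.6 CPM) and OTX2 (15.8 to 18.4 CPM) were lower, and BEST1, a channel of mature pigment epithelium, had 4.14 to 5.40 CPM. RPE65, RLBP1, PMEL, TYR, TTR and SERPINF1 were not among the genes measured here. Of 8 markers of blood, endothelial, other epithelial, keratinocyte and neuronal cells, 1 had values, TUBB3, a tubulin that many cultured lines express.

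Scaled to exon length, the 10 genes fell into a high and a low set. The target genes CCN1, AXL, ANKRD1 and CCN2 had mean levels of 386, 276, 253 and 192 CPM per kb of exon over the 6 libraries. The factors and regulators AMOTL2, AJUBA, YAP1, TEAD1, WWTR1 and LATS2 had 34.6, 32.7, 26.2, 22.3, 17.7 and 7.49 CPM per kb. In this order, the ranges of AXL (235 to 338 CPM per kb) and ANKRD1 (241 to 275 CPM per kb) overlapped, and so did those of AMOTL2 (29.8 to 42.0) and AJUBA (29.6 to 36.8). No other neighbours in the order overlapped across libraries. LATS2 is itself a YAP/TEAD target, and further target genes outside the 10 ranged from 2.07 (NUAK2) to 804 CPM per kb (THBS1). The high and low sets therefore do not part targets from other genes.

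Within families, YAP1 stood above WWTR1 in all 6 libraries, by a ratio of 1.32 to 1.69 in CPM per kb. LATS2 stood above LATS1 by 1.81 to 2.44. TEAD1 was the most abundant of the 4 TEAD genes per kb, with 22.3 CPM per kb against 19.0 for TEAD3, 14.6 for TEAD4 and 14.6 for TEAD2. CCN1 stood above CCN2 by a ratio of 1.85 to 2.29. AXL, a receptor tyrosine kinase of the family that also holds TYRO3 and MERTK, exceeded TYRO3 by a ratio of 43.3 to 58.4, and GAS6, the ligand of these receptors, was at 302 CPM per kb.

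**Figure D1:**
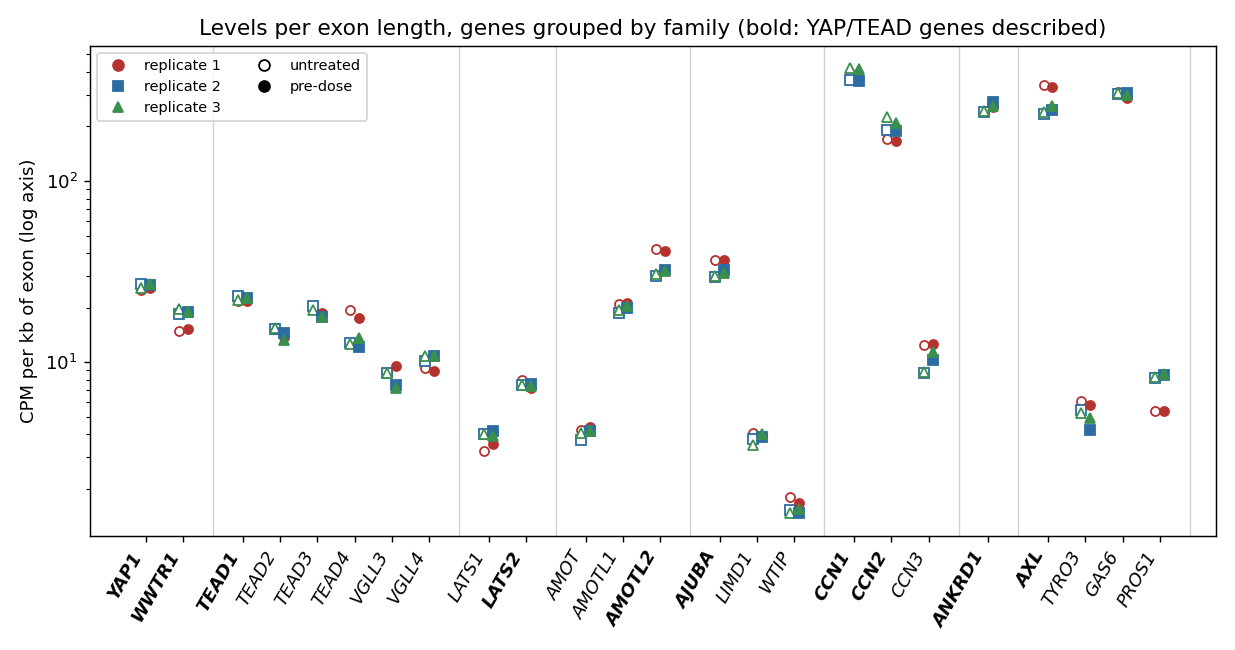
Levels in CPM per kb of exon (log axis) of the 10 genes (bold) and their relatives in each of the 6 libraries, open symbols for untreated and filled for pre-dose, with the replicate number by colour and shape. Of the 10 genes, CCN1, AXL, ANKRD1 and CCN2 lie between 167 and 420 CPM per kb and the other 6 between 7.23 and 42.0.

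After the pre-dose, the mRNA of the 10 genes stood close to that of untreated cells. None of the 10 passed an adjusted p of 0.05 in limma, and the share called among all 13616 genes was 0% as well. At an unadjusted p under 0.05, limma called 0 of the 10 and 280 of all genes (2.06%). The median difference of the 10 genes was 0.021 on the log2(CPM + 1) scale, against -0.0013 over all genes tested. The 95% intervals of the 10 differences together ran from -0.35 to 0.44, which is 0.787 to 1.36 as a fold of the untreated level. With the replicate number as a block, the intervals ran from -0.15 to 0.20, and limma called 1 of the 10 at an unadjusted p under 0.05 (10.6% of all genes) and 0 after adjustment (0%). In the authors' deposited table, 0 of the 10 were past an adjusted p of 0.05, where 3.05% of all genes were.

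ANKRD1 (ENSG00000148677) was the one gene of the 10 whose groups did not overlap. It encodes an ankyrin repeat protein of the nucleus and sarcomere that is induced in stretched or wounded cells, and lies on chromosome 10 from 90912096 to 90921276 (GRCh38, GENCODE 29, as for every gene position given). Its level was 482, 477 and 481 CPM in untreated replicates 1, 2 and 3, and 505, 544 and 515 CPM in pre-dose replicates 1, 2 and 3. The 3 untreated libraries lay close together (479.9 ± 2.82 CPM, SD, n = 3), and every pre-dose library was above all of them (521 ± 19.9 CPM). Groups did not overlap for 6.55% of all genes, 3.36% with the pre-dose higher, so 1 gene of 10 is near the background. The difference was 0.12 on the log2 scale (95% interval -0.0036 to 0.24), a fold of 1.09, and it did not pass in limma (unadjusted p = 0.0555, adjusted p = 1.00). With the replicate block its interval was 0.040 to 0.20, with an unadjusted p of 0.00806 and an adjusted p of 0.344 in limma.

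In the 3 pairs the ANKRD1 difference was 0.068, 0.19 and 0.098, and 15.6% of all genes were higher in all 3 pairs. With replicates 2 and 3 alone, a fit chosen because replicate 1 was known to stand apart, ANKRD1 passed in limma (0.14, adjusted p = 0.0366), 1 of the 10 genes against 6.36% of all genes. With library quality weights, limma called 0 of the 10 and 0.793% of all genes. The authors' deposited table gave 0.12 with limits of 0.045 and 0.19 and an adjusted p of 0.0748.

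None of the co-activators and their DNA-binding partner passed the test. YAP1 (ENSG00000137693, chromosome 11, 102110461 to 102233423) had 140.3, 151 and 145 CPM in untreated and 145, 150.1 and 151 CPM in pre-dose replicates 1, 2 and 3. The groups overlapped, and the difference was 0.032 (95% interval -0.097 to 0.16). WWTR1 (ENSG00000018408, chromosome 3, 149517235 to 149736714) had 79.9, 98.8 and 105 CPM in untreated and 81.8, 102 and 102 CPM in pre-dose replicates 1, 2 and 3. Both replicate 1 libraries were low and the other 4 lay together, whatever the treatment, and the difference was 0.011 (-0.29 to 0.31). With the replicate block the WWTR1 interval was -0.076 to 0.098. TEAD1 (ENSG00000187079, chromosome 11, 12674591 to 12944483) had 201, 216 and 204 CPM in untreated and 201, 211 and 209 CPM in pre-dose libraries, with overlapping groups and a difference of -0.0012 (-0.13 to 0.13).

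None of the 3 regulators passed either, and their spread within groups was unequal. LATS2 (ENSG00000150457), the kinase, is itself a YAP/TEAD target and lies on chromosome 13 from 20973032 to 21061547. It had 43.6, 41.0 and 41.1 CPM in untreated and 39.9, 41.5 and 40.6 CPM in pre-dose replicates 1, 2 and 3, a narrow band in which the groups overlapped (difference -0.042, 95% interval -0.18 to 0.097). AMOTL2 (ENSG00000114019), an angiomotin that binds YAP1 and holds it in the cytoplasm, lies on chromosome 3 from 134355874 to 134375479. It had 201, 142 and 147 CPM in untreated and 196, 154 and 153 CPM in pre-dose replicates 1, 2 and 3, so both replicate 1 libraries were high.

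AJUBA (ENSG00000129474), a LIM protein that binds LATS kinases, lies on chromosome 14 from 22971174 to 22982642 and had 176, 141 and 143 CPM in untreated and 175, 154 and 147 CPM in pre-dose replicates 1, 2 and 3. Replicate 1 was again high in both groups. The differences of AMOTL2 and AJUBA were 0.046 (95% interval -0.31 to 0.40) and 0.054 (-0.19 to 0.30). With the replicate block these intervals were -0.043 to 0.13 and -0.032 to 0.14.

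CCN1 and CCN2 encode secreted matricellular proteins and are the most used readouts of YAP/TEAD activity. CCN1 (ENSG00000142871, chromosome 1, 85580761 to 85583962) had 899, 826 and 961 CPM in untreated and 851, 816 and 956 CPM in pre-dose replicates 1, 2 and 3. CCN2 (ENSG00000118523, chromosome 6, 131948176 to 131951373) had 401, 450.1 and 531 CPM in untreated and 391, 440.2 and 487 CPM in pre-dose replicates 1, 2 and 3. Each gene was lower in its pre-dose library in all 3 pairs, as were 16.3% of all genes, and the groups overlapped in both. The CCN1 difference was -0.035 (95% interval -0.23 to 0.16) and that of CCN2 -0.064 (-0.35 to 0.22). With the replicate block these intervals were -0.11 to 0.036 and -0.14 to 0.012. For CCN1 the direction turned with library quality weights (0.020), and the authors' deposited table also gave a value above 0, 0.024, with an adjusted p of 0.871.

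AXL (ENSG00000167601), a receptor tyrosine kinase of adhesion and survival signalling, lies on chromosome 19 from 41219203 to 41261766. Its level was 1656, 1153 and 1175 CPM in untreated and 1625, 1209 and 1278 CPM in pre-dose replicates 1, 2 and 3. Both replicate 1 libraries were far above the other 4, and the treatment groups overlapped. The difference was 0.055 (95% interval -0.34 to 0.44), and the pairs differed by -0.027, 0.069 and 0.12. With the replicate block the AXL interval was -0.028 to 0.14.

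**Figure D2:**
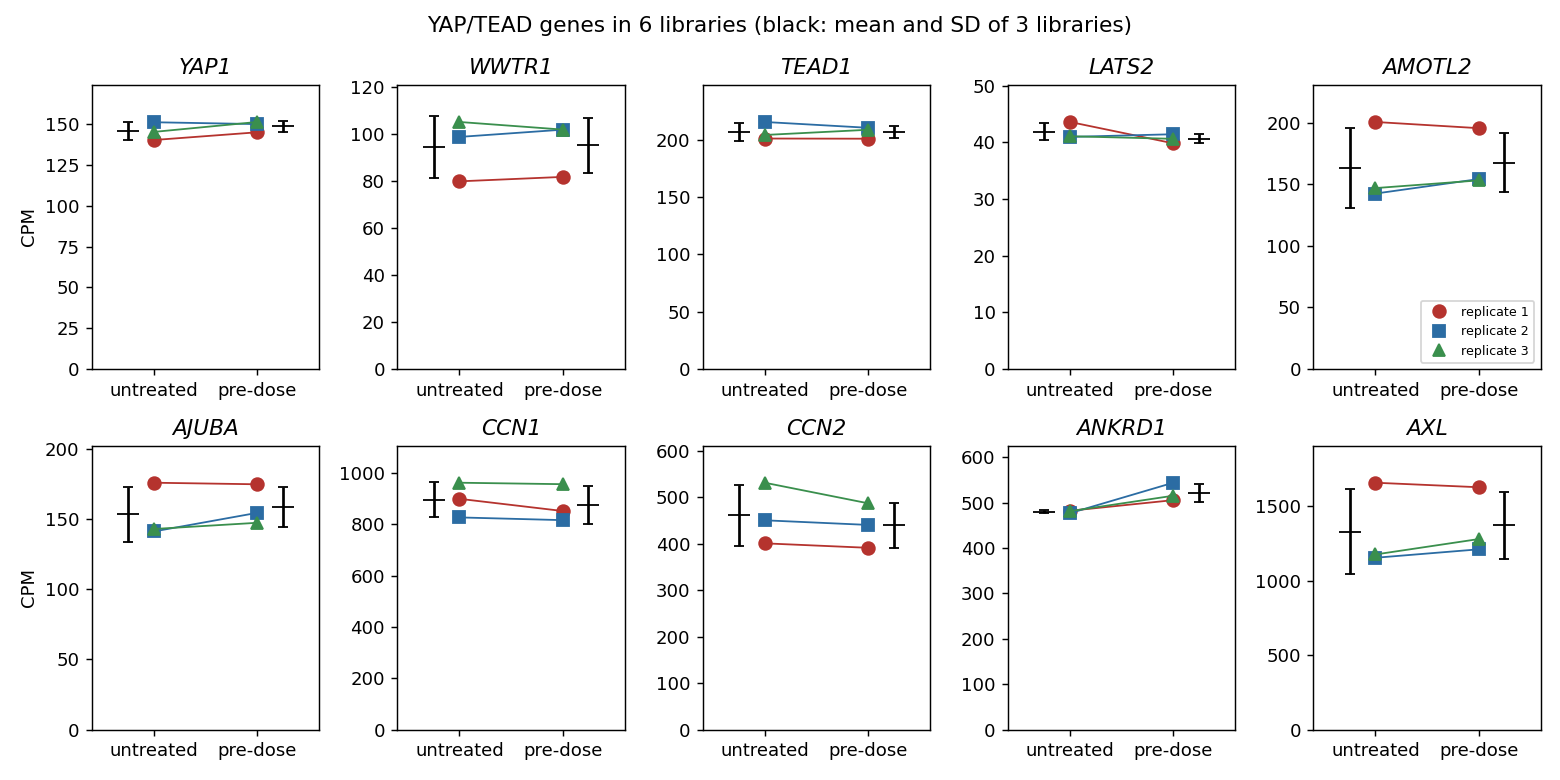
CPM of the 10 genes in the 3 untreated and 3 pre-dose libraries, with lines joining libraries of the same replicate number and black bars for the mean and SD of 3 libraries. ANKRD1 is higher in every pre-dose library (505 to 544 CPM) than in every untreated one (477 to 482 CPM), and in the other 9 panels the groups overlap.

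**Figure D3:**
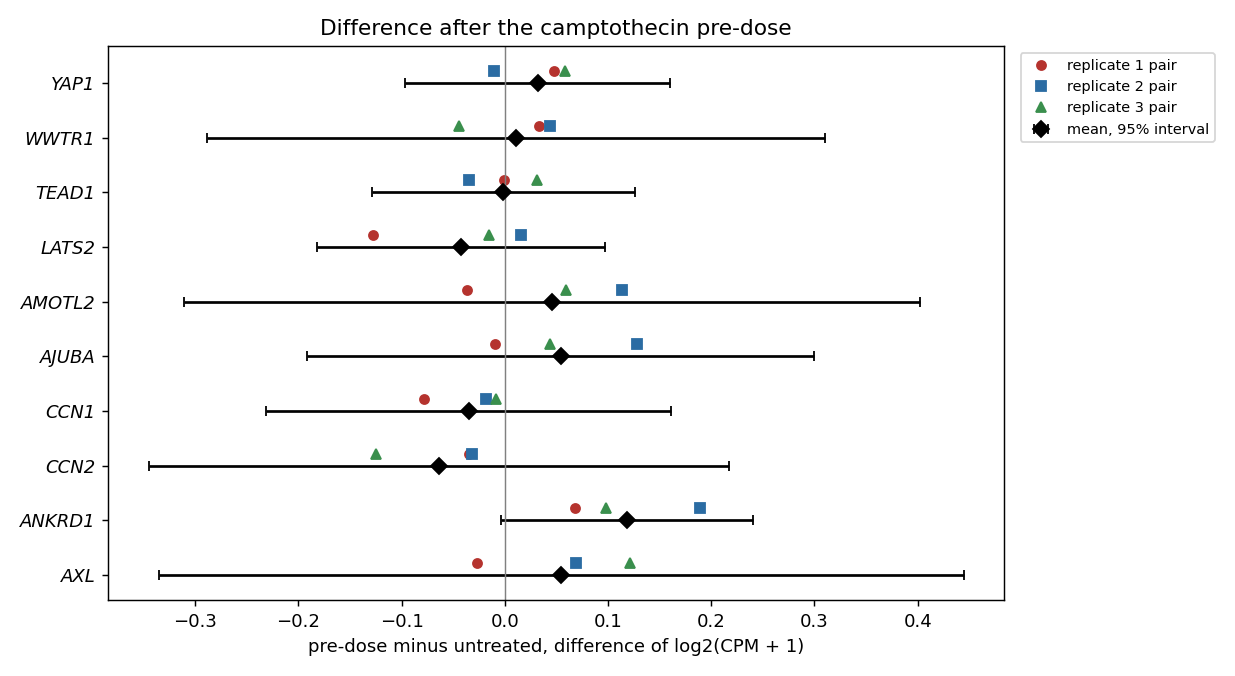
Difference of log2(CPM + 1), pre-dose minus untreated, for each of the 10 genes: diamonds and bars give the mean and 95% interval from limma without a replicate block, coloured points the 3 replicate pairs. Every interval includes 0, and the widest ones belong to AXL and AMOTL2.

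An F-test in limma over the 3 replicate numbers, with treatment in the model, called 6 of the 10: AXL, AMOTL2, CCN2, WWTR1, AJUBA and CCN1. The same test called 27.4% of all genes, so replicate offsets were common in these libraries. The adjusted p values were 6.17e-04 for AXL, 0.00107 for AMOTL2, 0.00162 for CCN2, 0.00217 for WWTR1, 0.00611 for AJUBA and 0.00888 for CCN1. YAP1 (0.367), TEAD1 (0.309), ANKRD1 (0.695) and LATS2 (0.934) did not pass. With a pseudocount of 0.5 CPM, the deposited log2 values, no filter and median-centred libraries, the test again called 6 of the 10, against 27.3%, 26.7%, 27% and 28.3% of all genes.

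The offsets did not share a direction. Averaged over both groups, replicate 1 exceeded the mean of replicates 2 and 3 by 0.45 for AXL, 0.41 for AMOTL2 and 0.26 for AJUBA on the log2 scale, folds of 1.36, 1.33 and 1.20. It stood below them by -0.33 for WWTR1 and -0.26 for CCN2, which is 1.26-fold and 1.20-fold lower. The CCN1 offset of replicate 1 was small (-0.020), and there the replicate 2 and 3 libraries differed, replicate 3 being above replicate 2 by 0.22. CCN2 differed between those as well, by 0.19. Among all genes, 14.1% were called with replicate 1 higher and 13.3% with replicate 1 lower.

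For 5 of the 6 genes, replicate 1 was offset the same way in both groups. The F-test picks genes whose offsets agree between the groups, so this agreement came with the choice of genes and is no separate result. In untreated libraries the replicate 1 offset was 0.51 for AXL, 0.47 for AMOTL2, 0.31 for AJUBA, -0.35 for WWTR1 and -0.29 for CCN2. In pre-dose libraries it was 0.39, 0.35, 0.21, -0.31 and -0.24 for the same genes in that order. CCN1 was the exception, with 0.012 in untreated and -0.053 in pre-dose libraries. With these offsets, the ratio of AXL to CCN2, both YAP/TEAD targets, was 1.98 and 1.99 per kb in the replicate 1 libraries and 1.06 to 1.31 in the other 4. The YAP1 to WWTR1 ratio was 1.67 and 1.69 in the replicate 1 libraries and 1.32 to 1.46 in the others.

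TUBB3 moved with the same libraries. It had 399.8 and 374 CPM in the replicate 1 libraries and 255 to 284 CPM in the other 4, and the other 7 markers of the list were not among the genes measured. The part of other cells in these offsets was not tested. The labels name no batch, and what sets replicate 1 apart was not tested. In bulk libraries, fewer cells with a transcript and less of it per cell cannot be told apart.

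**Figure D4:**
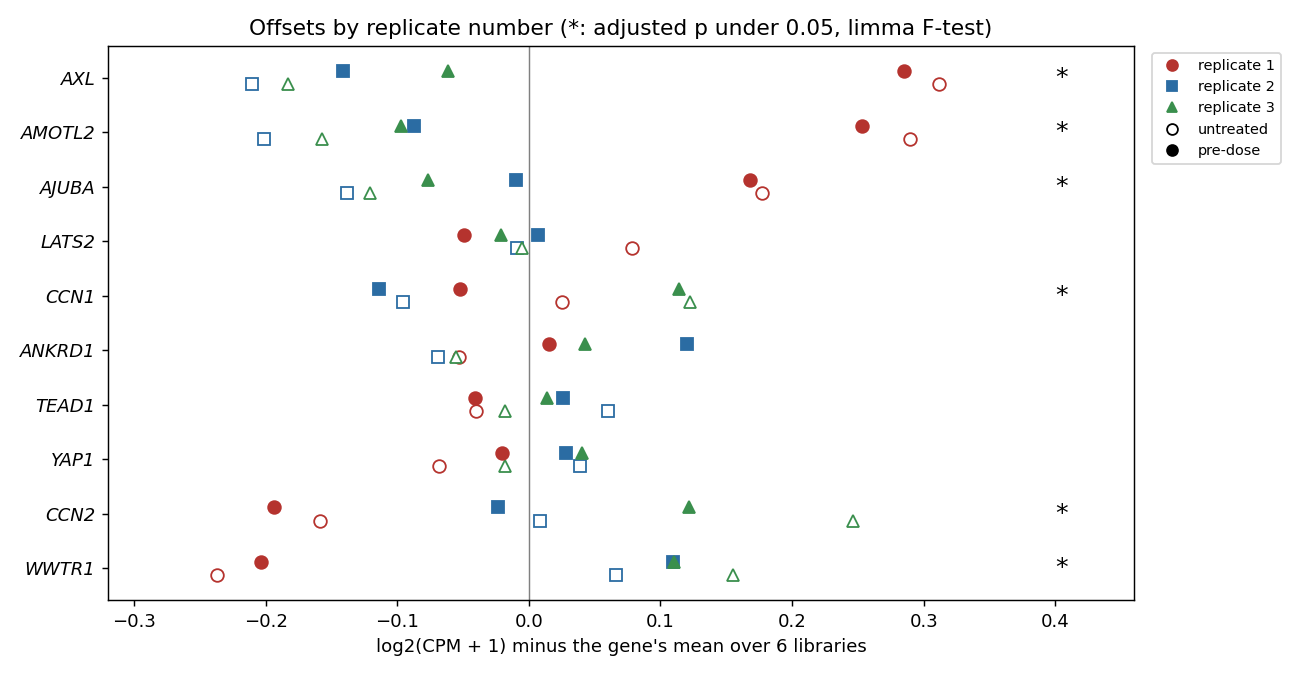
Each library's log2(CPM + 1) minus the gene's mean over the 6 libraries, with replicate number by colour and shape and treatment by filling, genes ordered by the offset of replicate 1. AXL, AMOTL2 and AJUBA lie to the right in both replicate 1 libraries, CCN2 and WWTR1 to the left, and stars mark the 6 genes past the F-test.

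The likeness of other genes was measured for AXL, AMOTL2 and CCN2, the 3 of the 10 with the widest range over the libraries. It was the root mean square difference between profiles centred on each gene's own mean over the 6 libraries, on the log2(CPM + 1) scale. Among the nearest to AXL were TRAP1 and SF3A1, at 0.019 and 0.025. TRAP1, for example, had 107 CPM in both replicate 1 libraries and 73.5 to 81.4 CPM in the other 4. Nearest to AMOTL2 were RRS1, TBL3 and YRDC, at 0.028, 0.028 and 0.030. Nearest to CCN2 were PCDHB7, PTGER4 and CADPS2, at 0.034, 0.037 and 0.040. The prostaglandin receptor gene PTGER4 had 9.01, 9.82 and 11.9 CPM in untreated and 8.45, 9.56 and 11.5 CPM in pre-dose replicates 1, 2 and 3. None of the genes named here is on the pathway lists used here.

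TEAD2, TEAD3 and TEAD4 share the DNA-binding domain of TEAD1, and VGLL proteins compete with or assist YAP1 at TEADs. Of 5 measured TEAD and VGLL genes, 0 passed in limma in either direction, against 0% of all genes. The list's median difference was -0.12, against -0.0013 over all genes tested. TEAD3 had 60.9, 61.9 and 59.3 CPM in untreated and 56.7, 53.8 and 54.1 CPM in pre-dose replicates 1, 2 and 3, and the groups did not overlap. Its difference was -0.14 (95% interval -0.28 to -0.011, unadjusted p = 0.0378, adjusted p = 1.00 in limma).

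TEAD2 had 41.0, 40.9 and 41.5 CPM in untreated and 37.1, 38.9 and 35.5 CPM in pre-dose libraries, also without overlap, with a difference of -0.14 (-0.29 to 7.9e-04). In all genes, 3.19% had groups that did not overlap with the pre-dose lower. VGLL3, a TEAD cofactor, had mean levels of 101 ± 0.637 CPM untreated and 93.3 ± 14.6 CPM pre-dose (SD, n = 3 each), and its pairs differed in sign, by 0.13, -0.23 and -0.27. Over all libraries the VGLL3 difference was -0.12 (-0.37 to 0.12, unadjusted p = 0.278 in limma). With the replicate block its unadjusted p was 0.127 in limma. In replicates 2 and 3 alone VGLL3 passed in limma (-0.25, adjusted p = 0.00426), 1 of the 5 against 6.36% of all genes. The authors' deposited table had it past the threshold (-0.25, adjusted p = 0.0391), 1 of the 5 against 3.05% of all genes. That table comes from the same libraries, so it is no separate test. TEAD4 and VGLL4, named after their values were seen, were the 2 of 5 with a called difference over replicate numbers, against 27.4% of all genes. With the replicate block, 2 of the 5 had an unadjusted p under 0.05 in limma, against 10.6%. TEAD4 had 34.9 and 31.6 CPM in the replicate 1 libraries and 21.8 to 24.5 CPM in the other 4.

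Of 23 measured Hippo kinases, adaptors and upstream regulators, 0 passed in limma in either direction, against 0% of all genes. The median difference was 0.048, against -0.0013 over all genes tested. PTPN14, a phosphatase that binds YAP1, had 330.3, 342 and 344 CPM in untreated and 364, 364 and 372 CPM in pre-dose replicates 1, 2 and 3. The groups did not overlap, and the difference was 0.12 (95% interval 5.5e-04 to 0.23, unadjusted p = 0.0492, adjusted p = 1.00 in limma). Groups did not overlap for 2 of the 23, against 6.55% of all genes. The other was MAP4K4, named after its values were seen, with means of 242 ± 4.07 CPM untreated and 251 ± 4.94 CPM pre-dose (SD, n = 3 each). FRMD6, a membrane scaffold of the pathway, had mean levels of 212 ± 7.09 CPM untreated and 232 ± 30.3 CPM pre-dose (SD, n = 3 each), with pair differences of -0.039, 0.26 and 0.15. Its difference over all 6 libraries was 0.12 (95% interval -0.11 to 0.35, unadjusted p = 0.244 in limma). FRMD6 passed in limma in replicates 2 and 3 alone (0.20, adjusted p = 0.00951). That fit called 1 of the 23 higher, FRMD6, and 1 lower, RASSF1, against 6.36% of all genes. RASSF1, a scaffold of the Hippo kinases named after its values were seen, had 35.4, 26.9 and 26.2 CPM in untreated and 36.5, 20.6 and 21.5 CPM in pre-dose replicates 1, 2 and 3. AMOT, the angiomotin that gives the family its name, had mean levels of 33.5 ± 2.04 CPM untreated and 35.4 ± 1.20 CPM pre-dose (SD, n = 3 each). The F-test over replicate numbers called 7 of the 23, 4 with replicate 1 higher and 3 lower, near the 27.4% of all genes. With the replicate block, 3 of the 23 had an unadjusted p under 0.05 in limma, against 10.6% of all genes.

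Further YAP/TEAD target genes went both ways. Of 23 measured, 0 passed in limma in either direction, against 0% of all genes. In all 3 pairs, 5 were higher and 6 lower (15.6% and 16.3% of all genes). The median difference was 0.0032, against -0.0013 over all genes tested. TGFB1I1, a focal adhesion protein, had 154, 149.8 and 149 CPM in untreated and 143, 136 and 129.9 CPM in pre-dose replicates 1, 2 and 3. The groups did not overlap, and the difference was -0.15 (95% interval -0.28 to -0.011, unadjusted p = 0.0371, adjusted p = 1.00 in limma). FSTL1, a secreted glycoprotein, had mean levels of 1031 ± 19.4 CPM untreated and 945 ± 45.9 CPM pre-dose (SD, n = 3 each), again without overlap. Groups did not overlap for 4 of the 23, against 6.55% of all genes, and the other two, named after their values were seen, had the pre-dose higher. These were ARHGAP29, with means of 243 ± 5.78 and 260.4 ± 10.2 CPM, and GADD45A, with 35.4 ± 1.20 and 37.0 ± 0.184 CPM (SD, n = 3 each). INHBA, a subunit of activin, had means of 219 ± 8.66 and 235 ± 9.09 CPM. IGFBP3, a binding protein of insulin-like growth factors, had 801 ± 9.78 and 871 ± 87.9 CPM (SD, n = 3 each). In all 6 libraries the differences of FSTL1, INHBA and IGFBP3 were -0.13 (95% interval -0.26 to 0.0080), 0.11 (-0.030 to 0.24) and 0.12 (-0.068 to 0.30).

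In the authors' deposited table TGFB1I1 (adjusted p = 0.0375) and FSTL1 (0.0375) were past the threshold as lower and IGFBP3 (0.0388) as higher, 3 of 23 against 3.05% of all genes. In replicates 2 and 3 alone, limma called the same 3 in the same directions and INHBA as higher, 4 of 23 against 6.36% of all genes. The F-test over replicate numbers called 9 of the 23, 4 with replicate 1 higher and 5 lower, against 27.4% of all genes. With the replicate block, 5 of the 23 had an unadjusted p under 0.05 in limma, against 10.6%. Among the 9 called by the F-test, FJX1, named after its values were seen, had a replicate 1 offset of 0.85.

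Relatives of CCN and AXL outside the Hippo cascade had 4 measured members, with 0 called and a median of -0.0074. Over all genes tested the share called was 0% and the median -0.0013. CCN3 had mean levels of 25.2 ± 5.44 CPM untreated and 28.8 ± 2.94 CPM pre-dose (SD, n = 3 each), with pair differences of 0.013, 0.23 and 0.37. The authors' deposited table had CCN3 past the threshold (0.34, adjusted p = 0.0467), and so did limma in replicates 2 and 3 alone (0.30, adjusted p = 0.0253). TYRO3 had mean levels of 50.4 ± 4.27 CPM untreated and 45.0 ± 7.23 CPM pre-dose, and GAS6 had 764 ± 7.30 and 740.4 ± 21.4 CPM (SD, n = 3 each). The F-test over replicate numbers called TYRO3, CCN3 and PROS1, the last named after its values were seen, against 27.4% of all genes, with replicate 1 offsets of 0.27, 0.35 and -0.61.

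**Figure D5:**
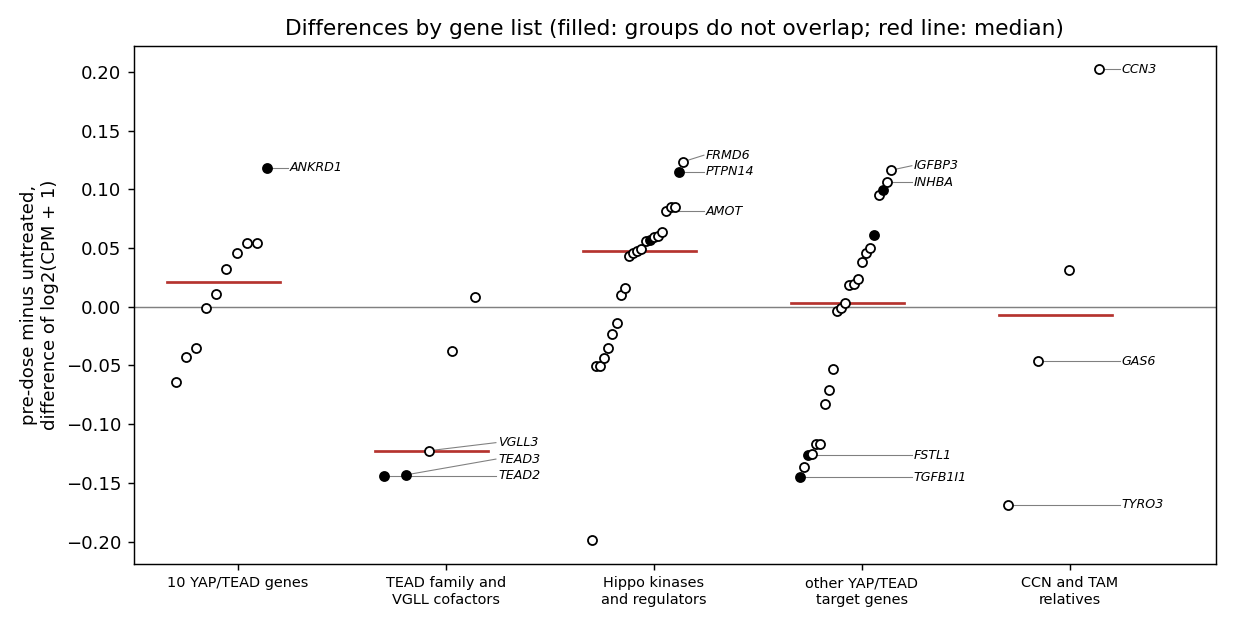
Difference of log2(CPM + 1), pre-dose minus untreated, for the 10 genes and the 4 pathway lists, with 1 point a gene, filled where the groups do not overlap, and the list median in red. ANKRD1 (0.12) is the only filled point among the 10, and the TEAD and VGLL list has the lowest median (-0.12).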

How the data were processed

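Poly-A RNA of 6 libraries was sequenced as paired reads, per the labels' protocols. Tools named in the submitters' processing notes are limma, edgeR, DRAGEN and bcl2fastq, with the build hg38. The counter, strand setting, annotation and gene filter were not given in the sources used here. Exons of 4 of the 10 genes (AXL, CCN2, WWTR1, YAP1) overlap exons of a gene on the opposite strand in GENCODE 29. Without the strand setting, reads of both cannot be told apart. Exons of AJUBA and AMOTL2 overlap those of AL132780.3 and RPL39P5 on the same strand, where a strand setting would not part the reads. The authors deposited 1 table with log2 CPM values. These were read as estimated counts with 0.5 added, scaled to effective library totals. The 0.5 was assumed, and the totals follow from it, with the recurring lowest value of each column taken as no reads. On that reading, 53.0 to 55.8% of values under 200 reads come out whole within 0.0005 reads. The counts therefore remain estimates and were used only for voom. Of the 13773 rows of the deposited table, 77 repeated an identifier and were dropped. The authors also deposited log2 fold changes with limits, scores (a moderated t and log-odds) and p-values of their own comparison; the sign was turned to pre-dose minus untreated.

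Values were turned to CPM and tested with limma-trend (limma 3.58.1, R 4.3.3) on log2(CPM + 1), for genes whose mean reached 1 CPM, with Benjamini-Hochberg adjustment over all 13616 genes and a threshold of 0.05. Only the limma-trend treatment fit without a block was run on simulated data. Its noise was independent between libraries and its changes were far larger than the differences described here. The replicate block, the F-test and the voom fits were not run on simulated data. The pseudocount of 1 CPM makes differences of low genes appear smaller. The F-test over replicate numbers used the same values with treatment in the model. Exon lengths are unions of GENCODE 29 basic exons; that release may differ from the annotation the submitters used.

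The 10 genes and all lists were chosen with earlier results of these data known. The named genes were the 10, the 3 of each list with the smallest unadjusted p in limma and list members past the threshold in either table, and the 3 nearest profiles of the 3 genes with the widest range; some genes are not reported here. Same-numbered libraries were taken as pairs, which the labels do not state. Their deviations from group means correlated across genes at 0.66, 0.45 and 0.18 for replicates 1, 2 and 3. Untreated replicate 3 and pre-dose replicate 2 correlated at 0.51, and untreated replicate 2 and pre-dose replicate 3 at 0.28. The correlations thus match replicate 1 by number but do not settle the pairing of replicates 2 and 3. Alternatives were the pseudocount, the filter, deposited values as they stand, median centring, the replicate block, voom, library quality weights, replicates 2 and 3 alone and leaving out each library.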

Additional observations from a re-analysis of the deposited data

How the results depend on the processing

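Of the 10 genes, 0 were called after the pre-dose with a pseudocount of 0.5 CPM, the deposited log2 values, no filter, median-centred libraries, the replicate block, voom, library quality weights and every fit that left out 1 library. Replicates 2 and 3 alone called 1, ANKRD1 (0.14). Over all genes these settings called 0, except 108 with library quality weights and 866 with replicates 2 and 3 alone. The replicate block, which takes same-numbered libraries as pairs, called 0 genes after adjustment and changed no adjusted call. At an unadjusted p under 0.05 it raised the count from 280 to 1443 genes, and from 0 to 1 of the 10 (ANKRD1). The F-test over replicate numbers called 6 of the 10 under each of the 4 alternatives run for it. Small differences changed sign: WWTR1 was -0.0020 with library quality weights and -0.00037 in replicates 2 and 3, CCN1 0.020 with library quality weights and LATS2 0.00018 in replicates 2 and 3. Leaving out 1 library, differences ran from -0.11 to 0.12 for WWTR1, -0.022 to 0.028 for TEAD1, -0.10 to 0.017 for CCN1, -0.16 to 0.043 for CCN2, -0.070 to 0.20 for AMOTL2, -0.016 to 0.16 for AJUBA and -0.074 to 0.22 for AXL. They kept their sign for ANKRD1 (0.088 to 0.14), YAP1 (0.0057 to 0.059) and LATS2 (-0.058 to -0.014). With 1 library of replicate 1 left out and no block, the offset of the other enters the difference. Depth did not limit these genes, all far above 3 counts.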
